A study of Mus musculus with 6 samples.

Results

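The genes described here serve protein synthesis in the cytosol: 3 ribosomal proteins of the large subunit (Rpl7, Rpl31, Rpl37a), 3 translation factors (Eef1b2, Eif4e2, Eif5b) and 3 nucleolar ribosome assembly genes (Ncl, Nop58, Rrs1). They were taken by gene symbol from a table of chromosome 1 genes. All 9 symbols were found, each in 1 row, among 1140 complete rows. All 9 were also among the 646 rows that the authors had tested, so no member was lost to low values. Their levels in the knock-in differed from control by -3.47% to 11.8%, and none of them was called changed.

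Whole retinas of C57BL/6 mouse embryos at E15.5 were compared between 2 genotypes. The control, T2fx/+, carried 1 T2fx allele of Tbr2 beside 1 unmodified allele, and the submitters call it wild type. The other group, T2Isl1/+, carried 1 allele with Isl1 knocked in at Tbr2, also beside 1 unmodified allele. Tbr2 (gene symbol Eomes) is a T-box transcription factor active in some retinal ganglion cells, and Isl1 is a LIM-homeodomain factor of many developing ganglion cells. By design the knocked-in Isl1 is under control of the Tbr2 locus. In which cells of the sampled tissue it was active was not checked here. Each group had 3 libraries of total RNA, each from a pool of 8 retinas. The labels do not say whether pools shared litters, and p-values therefore speak to these libraries only. How the authors' p-values took the spread between libraries into account is not known here.

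The authors' deposited table holds 1 combined value per gene and group, in FPKM. These are sequenced fragments divided by transcript length in kilobases and by a scale for library size. How the authors set that scale is not known here. No value per library, SD or interval can be given, and the depth is unknown. The table lists the authors' p-value and a q-value adjusted for the genes tested, and a gene was called changed at a q-value under 0.05. Isl1, Eomes and most defining retinal genes lie on other chromosomes and were not analysed here, so the labels were not checked against the targeted gene. The retinal genes Fzd5 and Crb1, picked after their values were seen, had 68.0 and 66.2 FPKM and 14.0 and 12.9 FPKM (control, then knock-in) per the authors' deposited table. The eye also holds lens. Per the authors' deposited table the 7 tested lens crystallins summed to 1038 FPKM in T2fx and 93.6 FPKM in T2Isl1 retinas. All 7 were called, lower. The 6 tested mesenchyme and vessel genes summed with 1 untested row to 38.6 and 29.3 FPKM, with 1 of 6 called, lower. Of 10 muscle genes 3 were tested and 1 was called, lower. The summed level of all 8 muscle rows was 4.22 and 1.46 FPKM. The blood list had 1 row, not tested, at 0.0123 and 0.0467 FPKM, and the pigment epithelium list had no row. The part of these tissues in the values below was not tested, and fewer cells of a type cannot be told apart from less RNA per cell in such bulk samples.

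Ribosomes are built in the nucleolus, where ribosomal RNA is transcribed, cut and chemically modified while ribosomal proteins are added. Small nucleolar RNAs guide the modifications, and many are cut out of the introns of genes that themselves serve ribosome assembly or translation. Initiation factors bring the ribosomal subunits together on capped mRNA, and elongation factors supply the ribosome with aminoacyl-tRNA. Proliferating progenitors, which are abundant in the embryonic retina, have a high demand for new ribosomes.

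Several of these genes share short sequences near their start sites, shown here because they were not used to choose the genes. RefSeq start sites (GRCm38.p6, the assembly of mm10) were found for 7 of the 9 genes. The motif CCGGAAGT, the core bound by ETS-family transcription factors, was searched on both strands in the 300 bases from 250 before to 50 after each start. It was chosen after the sequences had been seen. The lines below give 30 bases, from 10 before to 20 after the start, 5′ to 3′ on the gene's strand, with that motif in capitals.
Rpl31 (chr1:39367841-39367870, plus strand): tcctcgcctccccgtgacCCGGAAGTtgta
Eef1b2 (chr1:63176821-63176850, plus strand): ctgcagttccgCCGGAAGTagccgaggcct
Eif4e2 (chr1:87213904-87213933, plus strand): ctcgccagccaaCCGGAAGTagccgggccc
Rpl37a (chr1:72711250-72711279, plus strand): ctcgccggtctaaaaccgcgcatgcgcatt
In Rpl31 the motif begins at base 9 after the start, in Eef1b2 at base 2 and in Eif4e2 at base 3. For Eif4e2, with 3 RefSeq starts, the start shown is the one at which the table's locus begins. Rpl37a, shown for contrast, had no match within its 300 bases, and neither had Eif5b, Ncl or Nop58. Thus 3 of 7 genes held the motif. Of all 32851 mouse start regions of that length 3.89% held it, a share of single start regions and not of genes. Because the motif was picked from these same sequences, no enrichment can be read from these shares. A match is a description of letters and not of a bound site.

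The ribosomal protein genes were, per length, among the most abundant transcripts of the table, and their knock-in values lay 10.1% to 11.8% above control without passing the test. Rpl7 (chr1:16101295-16104662, minus strand, GENCODE M21), a large-subunit protein that contacts ribosomal RNA, had 1134 FPKM in T2fx and 1267 FPKM in T2Isl1 retinas per the authors' deposited table. Its log2 fold change was 0.16 (p = 0.234 and q = 1.00 per the authors' deposited table). Rpl37a (chr1:72711290-72713813, plus strand), a small zinc-binding protein of the large subunit, had 991 and 1108 FPKM per the authors' deposited table. The log2 fold change of Rpl37a was 0.16, with the smallest p-value of the 9 genes, 0.163 unadjusted, per the authors' deposited table. Rpl31 (chr1:39367842-39371911, plus strand), which lies near the exit of the peptide tunnel, had 774 and 852 FPKM, with 0.14 as log2 fold change (p = 0.252 in the authors' deposited table). With the groups scaled to equal sums over tested rows other than lens crystallins, the log2 fold changes were 0.086 for Rpl7, 0.088 for Rpl37a and 0.066 for Rpl31. In both genotypes these genes held ranks 2, 3 and 4 of the 646 tested rows, behind Ptma.

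Proportions between the ribosomal protein mRNAs were close in both genotypes. The ratio of Rpl7 to Rpl37a was 1.14 in both groups, and that of Rpl7 to Rpl31 was 1.47 in control and 1.49 in knock-in retinas. Each ribosome carries 1 copy of each of these proteins. The summed level of Rpl7, Rpl31 and Rpl37a was 2899 FPKM in T2fx and 3227 FPKM in T2Isl1 retinas. These were 13.98% and 15.51% of all FPKM in the chromosome 1 rows. Those totals include the lens crystallins, at 5.003% in T2fx and 0.45% in T2Isl1 retinas, so the 2 shares have unlike bases.

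**Figure D1:**
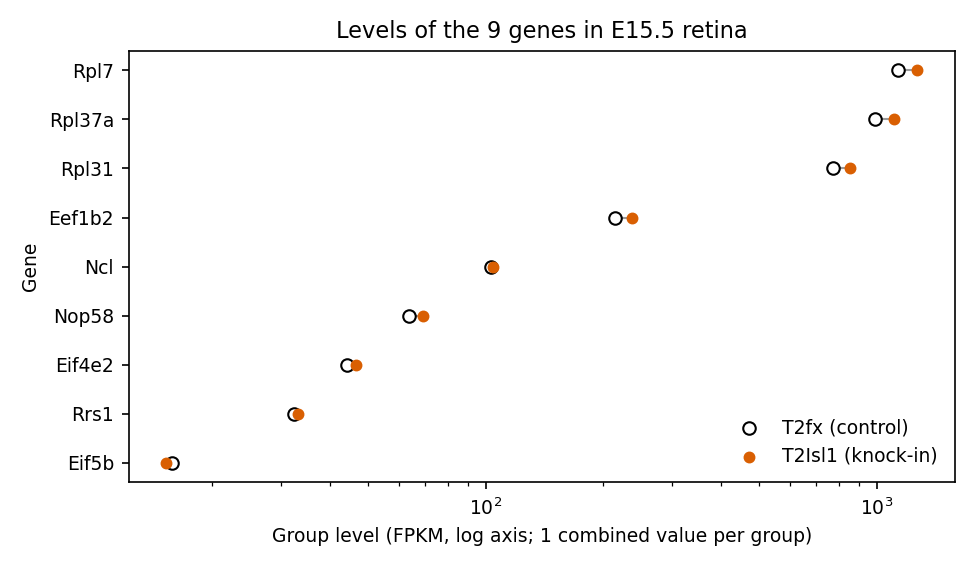
Group level in FPKM (log axis) of each of the 9 genes, ordered by control level, with open circles for T2fx and filled circles for T2Isl1. Each circle is 1 combined value from 3 libraries and has no error bar. As deposited, the filled circle lies to the right for 8 genes and to the left for Eif5b alone. With equal sums outside lens crystallins Eif4e2, Ncl and Rrs1 change side.

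Among the translation factors, the elongation factor gene had a difference of the size seen in the ribosomal proteins, and the initiation factor genes had smaller ones of either sign. Eef1b2 (chr1:63176825-63180486, plus strand) encodes a subunit of the exchange factor that reloads the tRNA-delivering elongation factor with GTP. It had 213 FPKM in T2fx and 237 FPKM in T2Isl1 retinas, a log2 fold change of 0.15 (p = 0.183 per the authors' deposited table). The ratio of Rpl7 to Eef1b2 was 5.31 in control and 5.34 in knock-in retinas. Eif4e2 (chr1:87213914-87240488, plus strand), a cap-binding protein that can repress translation, had 44.4 and 46.6 FPKM, with 0.07 as log2 fold change (p = 0.546 per the authors' deposited table). For Eif5b (chr1:37998010-38055579, plus strand), the GTPase that joins the ribosomal subunits, levels were 15.8 and 15.3 FPKM, with -0.05 as log2 fold change (p = 0.693 per the authors' deposited table). Eif5b had the lowest level of the 9 genes and, as deposited, was the only one below control, while with equal sums outside lens crystallins Eif4e2, Ncl and Rrs1 were below as well and Ncl also when centred on all tested rows. It is also the longest by coding sequence, with 3648 bases in 24 exons.

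The nucleolar genes had a median log2 fold change of 0.03, the lowest of the 3 roles, with Nop58 above the other two. With equal sums outside lens crystallins that median was -0.039, and 1 of the 3 genes, Nop58, was above control. Nop58 (chr1:59684971-59719044, plus strand), a core protein of box C/D small nucleolar ribonucleoproteins, had 63.8 FPKM in T2fx and 69.2 FPKM in T2Isl1 retinas (log2 fold change 0.12, p = 0.293 per the authors' deposited table). Ncl (chr1:86344719-86359400, minus strand) encodes nucleolin, an abundant RNA-binding protein of the nucleolus. Its values of 103 and 104 FPKM per the authors' deposited table give a log2 fold change of 0.01 (p = 0.917). Rrs1 (chr1:9545408-9547455, plus strand), a single-exon gene for a regulator of large-subunit assembly, had 32.4 and 33.1 FPKM, with 0.03 as log2 fold change (p = 0.765 per the authors' deposited table). The ratio of Rpl7 to Ncl was 11.0 in control and 12.1 in knock-in retinas, and that of Nop58 to Ncl was 0.616 and 0.663.

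Genes for small nucleolar RNAs lie inside 3 of the 9 genes, Nop58, Ncl and Eef1b2. GENCODE M21 has 10 such entries there, of which 2 overlapping ones in Eef1b2 share the name Gm26457, each on the host's strand and outside the exons of the host's coding transcripts. The 2 box C/D RNAs below, the kind that Nop58 protein binds, are printed with their C box (TGATGA) and D box (CTGA) in capitals, as DNA letters, 5′ to 3′.
Snord11 in Nop58 (chr1:59704790-59704873, plus strand): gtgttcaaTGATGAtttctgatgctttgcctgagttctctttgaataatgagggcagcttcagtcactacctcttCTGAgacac
Snord82 in Ncl (chr1:86356261-86356330, minus strand): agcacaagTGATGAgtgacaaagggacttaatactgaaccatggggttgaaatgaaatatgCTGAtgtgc
Of the 10 entries, 6 had a row: Snord11, Snord70, Snord82, Snora41, Snora75 and Gm24148. Each was listed at 0 in both groups and was not tested by the authors. Nothing can be read from these rows about the guide RNAs.

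None of the 9 genes was called, in either direction, at a q-value under 0.05: 0 were higher and 0 were lower. Over all 646 tested rows 1.55% were called, 0.155% higher and 1.39% lower, so with 9 genes no call would be the usual outcome. Of the 9 lower calls 7 were lens crystallins, 1 was a mesenchyme and vessel gene and 1 was a muscle gene. The share called lower is therefore that of genes listed for other tissues. By the authors' unadjusted p-value under 0.05 the count was also 0 of 9, against 3.72% of tested rows. It was 0 of 9 as well when p-values were adjusted by Benjamini-Hochberg within the analysed rows. The smallest called difference per the authors' deposited table was 1.79-fold (Rftn2), and the smallest with an unadjusted p-value under 0.05 was 1.18-fold (Mob4). The largest among these 9 genes was 1.12-fold (Rpl37a), below both. No tested row with so small a fold had an unadjusted p-value under 0.05, which does not show that levels were equal. The q-value of each of the 9 genes was 1.00 per the authors' deposited table.

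By direction, 8 of the 9 genes were above control, against 54.6% of all tested rows, but only 5 of 9 (and 31.9% of tested rows) once the groups were scaled to equal sums over rows other than lens crystallins. Eif4e2, Ncl and Rrs1 joined Eif5b below control on that scale, and Rpl7, Rpl31, Rpl37a, Eef1b2 and Nop58 stayed above. Those sums include the 9 genes themselves. With the 9 genes left out of the sums as well, 6 of 9 and 35.6% of tested rows were above control, and Eif4e2 stayed above. Centred on the median of all tested rows, 7 of 9 were above, since Ncl moved to just below 0. The median log2 fold change of the 9 genes was 0.12, beside 0.01 over all tested rows. With equal sums outside lens crystallins it was 0.04 beside -0.06. For Rpl37a, 10.5% of tested rows had a larger log2 fold change. For Rpl7 the share was 11.1%, for Eef1b2 12.4%, for Rpl31 14.6% and for Nop58 20.3%. Ncl stood near the middle of the table, with 50.5% of tested rows above it.

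**Figure D2:**
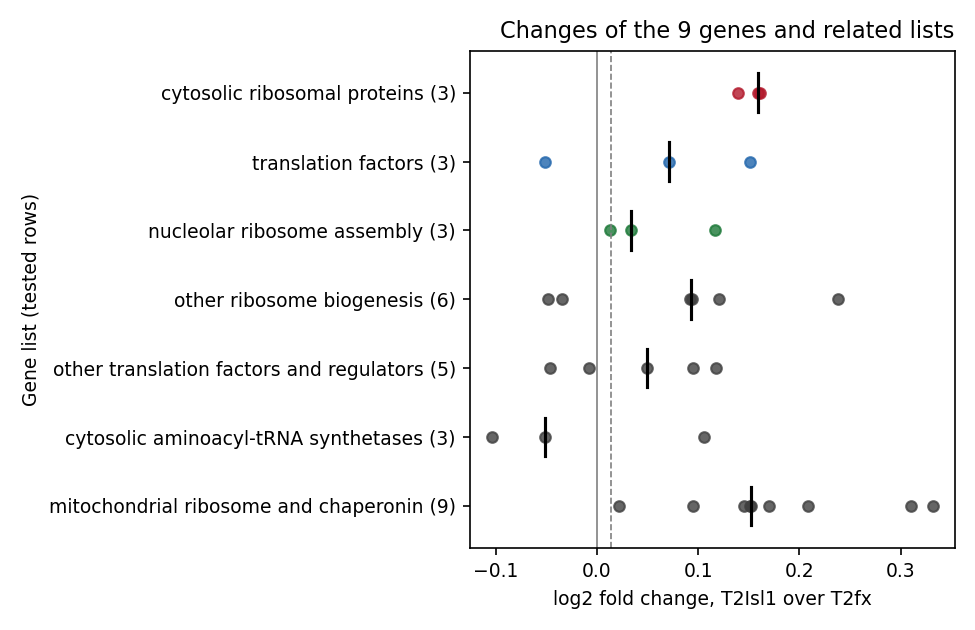
Log2 fold change (T2Isl1 over T2fx) of each tested gene, as points, in the 3 groups of the 9 genes and in 4 related lists, with a short bar at each list's median and the number of genes in brackets. The solid line marks 0 and the dashed line the median of all tested rows, 0.01. The ribosomal protein genes lie together between 0.14 and 0.16, while translation factors spread from -0.05 to 0.15.

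By coding length, the shortest of these genes, Rpl37a, had the highest log2 fold change and the longest, Eif5b, the lowest. Group medians over the table ran in the same order. The genes between these ends did not keep it: Rpl7 (0.16) was above the shorter Rpl31 (0.14), and Nop58 (0.12) above the shorter Rrs1 (0.03). With 593 tested coding genes ordered by coding length into 5 near-equal groups, the medians of the log2 fold change ran 0.08, 0.06, 0.04, -0.01 and -0.09 from the shortest to the longest. The share of genes above control was 74.6% in the shortest group and 15.1% in the longest. Rpl37a (276 coding bases), Rpl31 (387) and Eef1b2 (675) were in the shortest group, and Eif5b was in the longest. Rpl7 (838), Eif4e2 (777) and Rrs1 (1095) were in the second, where 76.5% of genes were above control. Nop58 (1608) was in the third group and Ncl (2121) in the fourth, with medians of 0.04 and -0.01. Within their own length group 8 of the 9 genes were above the median, and Rrs1 was below it. By longest annotated coding transcript the order differs, since Nop58 (9507 bases) and Ncl (8202) are then longer than Eif5b (7797). The part of length in these differences was not tested.

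**Figure D3:**
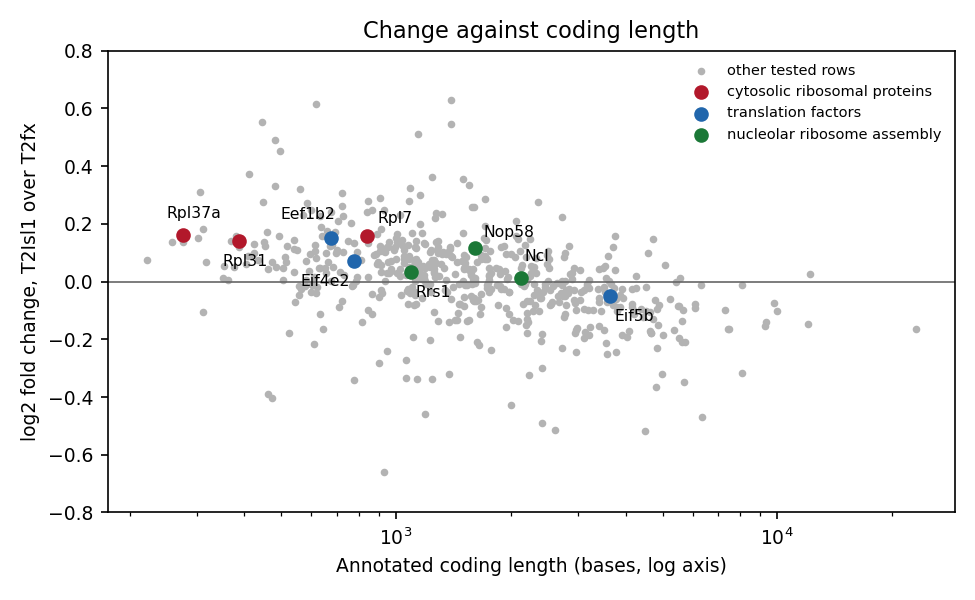
Log2 fold change (T2Isl1 over T2fx) against annotated coding length in bases (log axis) for 593 tested coding genes, with the 9 genes in colour by role. The vertical axis stops at 0.8 in each direction, which leaves out 15 genes. The short ribosomal protein genes lie at the upper left and Eif5b at the lower right, along the slope of the grey points.

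The most abundant genes of the table were also mostly above control, as deposited. In the highest of 5 groups by control level, which held 8 of the 9 genes, 73.8% of rows were above control with 0.06 as the median log2 fold change. Of the 20 highest rows that were neither among the 9 genes nor lens crystallins, 18 were above control, with a median of 0.07 and none called. These included Ptma, the highest of all, with 2856 FPKM in T2fx and 3005 FPKM in T2Isl1 retinas per the authors' deposited table, or 0.07 as log2 fold change. Equal sums outside lens crystallins shift every log2 fold change by -0.073, about as large as the medians of 0.06 and 0.07 here. The direction of many of these rows thus depends on the scale, and the counts were not repeated on that scale. All FPKM in a group share 1 scale, and in these rows the lens crystallins were 5.003% of the control sum and 0.45% of the knock-in sum. The 9 genes made up 16.3% and 17.9%. The part of this shift in the values of the 9 genes was not tested.

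**Figure D4:**
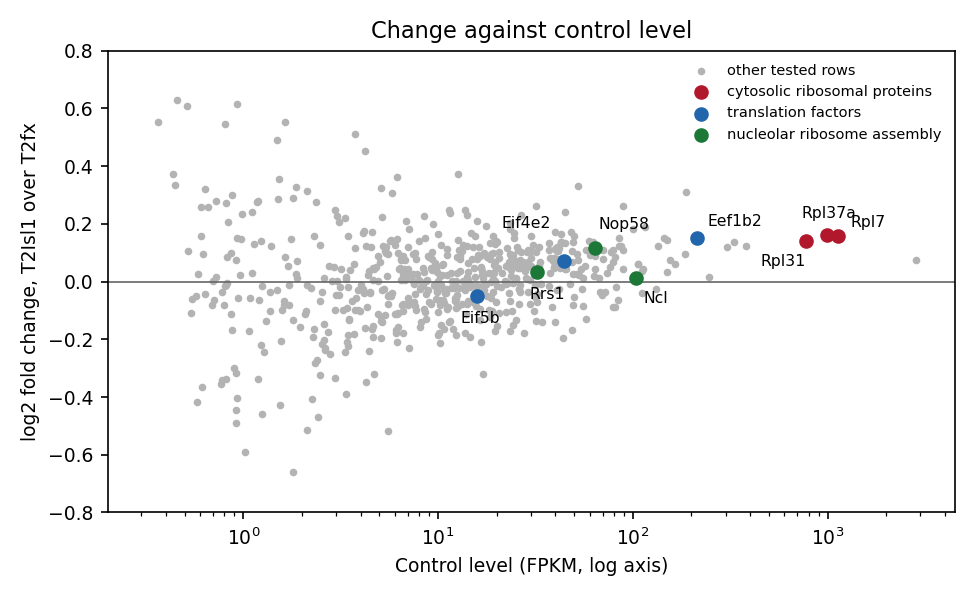
Log2 fold change (T2Isl1 over T2fx) against control level in FPKM (log axis) for the tested rows, with the 9 genes in colour by role. The vertical axis stops at 0.8 in each direction, which leaves out 16 of 646 rows. Rpl7, Rpl37a and Rpl31 lie at the far right, and only Ptma lies beyond them.

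Other genes listed under ribosome assembly had control levels from 11.6 FPKM (Wdr12) to 40.9 FPKM (Nifk), and none of them was called. Of 57 symbols on that list 6 were tested, 4 above and 2 below control as deposited, with a median log2 fold change of 0.09. With equal sums outside lens crystallins 4 of 6 were above. Nifk, a nucleolar partner of the proliferation antigen Ki-67, had 40.9 FPKM in T2fx and 44.5 FPKM in T2Isl1 retinas per the authors' deposited table. Imp4, a component of the U3 small nucleolar ribonucleoprotein, had 24.4 and 26.01 FPKM, and the helicase gene Ddx18 had 29.0 and 28.3 FPKM per the authors' deposited table. The exonuclease gene Dis3l2 had 16.3 and 15.7 FPKM per the authors' deposited table. It is among the 2 below control, and whether it belongs to ribosome assembly was not checked. Wdr12, of the complex that matures large-subunit RNA and picked after its value was seen, had the largest log2 fold change of the list, 0.24, at 11.6 and 13.6 FPKM (p = 0.123 per the authors' deposited table).

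Further translation factors and regulators gave 5 tested genes of 44 symbols, 3 above and 2 below control, none called, with a median log2 fold change of 0.05. With equal sums outside lens crystallins 2 of 5 were above. Bzw1, which resembles and competes with the initiation factor eIF5, had 186 FPKM in T2fx and 198 FPKM in T2Isl1 retinas per the authors' deposited table. Eif2d, which can deliver tRNA to the ribosome, had 22.6 and 24.6 FPKM, and Cnot11, of the deadenylase complex, had 27.2 and 28.2 FPKM per the authors' deposited table. The tRNA methyltransferase-like gene Trmt1l had 13.7 and 13.6 FPKM per the authors' deposited table. Gigyf2, the binding partner of Eif4e2 protein and picked for that role, had 12.6 and 12.2 FPKM per the authors' deposited table. Its log2 fold change was -0.05, beside 0.07 for Eif4e2.

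Cytosolic aminoacyl-tRNA synthetases, which charge tRNA with amino acids, had 3 tested genes, 1 above and 2 below control and none called, with the same counts after that scaling. Farsb had 29.9 and 32.2 FPKM, Dars had 49.95 and 48.2 FPKM and Eprs had 31.1 and 28.9 FPKM per the authors' deposited table. The log2 fold changes ran from -0.10 for Eprs to 0.11 for Farsb.

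Mitochondrial ribosome and chaperonin genes, which serve protein synthesis and folding inside the mitochondrion, also had values above control. All 9 tested genes of 21 symbols were above control (8 of 9 after that scaling), none called, with a median log2 fold change of 0.15 beside 0.12 for the 9 cytosolic and nucleolar genes. That difference was not tested. The mitochondrial chaperonin genes Hspe1 and Hspd1, which are neighbours on the chromosome, had 189 and 234 FPKM and 149 and 165 FPKM per the authors' deposited table. Mrps14 had 85.0 and 94.4 FPKM per the authors' deposited table. Mrpl30 had 52.4 and 65.9 FPKM and, alone on these lists, an unadjusted p-value under 0.05 (p = 0.0348, q = 1.00 per the authors' deposited table).

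Assignment of reads is uncertain for some of the 9 genes. Rpl31 has 24 annotated pseudogenes that carry its name and Rpl7 has 1, and reads from such near-identical copies could be shared with them. Pseudogenes annotated under other names were not counted for any of the 9 genes, so these counts are minima. Rpl31 overlaps the opposite-strand gene Tbc1d8 by 420 bases and Eif5b overlaps Rev1 by 2794 bases, and no source used here says whether the authors counted by strand. Per the authors' deposited table Tbc1d8 had 3.19 and 3.29 FPKM and Rev1 had 9.26 and 9.53 FPKM, so the Rpl31 level is far above that of its neighbour and the Eif5b level is not. Eef1b2 overlaps Ndufs1 on the opposite strand by 9 bases. The table also gives Rpl7 1 locus with Rdh10, at 26.5 and 31.1 FPKM, and Ncl 1 locus with C130036L24Rik, at 1.49 and 1.46 FPKM per the authors' deposited table.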

How the data were processed

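Total RNA from pooled E15.5 retinas was sequenced in 3 libraries per genotype, with groups as labelled. TopHat2 2.1.1, Cufflinks 2.1.1, CASAVA and the build mm10 are named, without order, by the submitters' processing notes. The deposited table holds 1 value per gene and group, read here as FPKM from its layout, since the file header says only value. Per the file headers, the authors also give a log2 fold change, a p-value, a q-value and a test score, which was not used. Recomputed from the group values without a pseudocount, the log2 fold change of tested rows differed by at most 1.06e-05. FPKM divides by transcript length, so values of very short transcripts depend on how the authors estimated usable length. Levels also depend on how they scaled for library size.

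Of 1141 rows 1 was incomplete and left out, and the rows cover part of chromosome 1. No new test of a gene was made. The 9 genes and the lists were chosen with earlier results of these data known. The rule named all 9 genes, the 4 most abundant tested genes of each related list, any listed gene with an unadjusted p-value under 0.05, and rows overlapping the 9 genes. Coding length was the longest annotated in GENCODE M21, and 1 was added to table starts. Counts, medians, scaling and adjustment were computed in Python 3.11.15 with pandas 2.3.3 and tested on simulated data. Alternatives were stricter and looser thresholds, centring, 2 scalings, a pseudocount of 1 and a floor of 5 FPKM.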

Additional observations from a re-analysis of the deposited data

How the results depend on the processing

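Counts of called genes stayed at 0 higher and 0 lower at a q-value under 0.01, at an unadjusted p-value under 0.05 and with adjustment over the analysed rows, where the smallest adjusted p was 0.998. The median log2 fold change of the 9 genes was 0.12. It was 0.10 centred on all tested rows and 0.044 with equal sums outside lens crystallins. It was 0.060 with equal sums outside lens crystallins and the 9 genes, a setting chosen after seeing the data. Of 36 settings of single genes 30 kept their direction. The 6 others changed sign, from values as deposited of 0.01 for Ncl, 0.03 for Rrs1 and 0.07 for Eif4e2. Ncl became -0.00092 when centred, -0.060 with equal sums outside lens crystallins and -0.045 with the 9 genes left out as well. Under those last 2 scalings Rrs1 became -0.039 and -0.023, and Eif4e2 became -0.0017 under the first of them. These scalings subtract 1 constant from every gene, which is why small values changed sign. A pseudocount of 1, a floor of 5 FPKM and leaving out the 4 genes whose locus holds another tested row, a setting also chosen after seeing the data, left the median at 0.12. Leaving out single libraries was not run for want of values per library.

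No paired analysis was possible because the value columns used here combine the libraries of each group.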
